A study of Mus musculus with 6 samples.

Results

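Genes of 7 proteins that the liver secretes into blood or urine were examined in epididymal white adipose tissue (eWAT): the major urinary protein genes Mup2, Mup10, Mup11 and Mup19, the albumin gene Alb, the fetuin-A gene Ahsg and the apolipoprotein C-I gene Apoc1. They are 7 of the 21361 genes in the deposited table, and they were picked by name after their values in these same libraries had been seen, so their difference between the genotypes is given as a description, with no test. RNA was sequenced from eWAT of 3 Mettl14Δfat and 3 Mettl14f/f male mice, 1 mouse per library. In Mettl14Δfat mice adiponectin-Cre deletes the floxed Mettl14 gene, which encodes a subunit of the m6A RNA methyltransferase, in adipocytes and not in the other cells of the tissue. Mettl14f/f mice carry the floxed alleles without Cre, and the labels give their genotype as WT. All mice began a high fat diet (HFD) at 8 weeks of age and were fasted overnight before dissection. The diet lasted 16 weeks by the labels and the study's methods and 20 weeks by the series' design text. The whole tissue was used, so a change in the share of a cell type and a change in RNA per cell cannot be told apart.

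Hepatocytes make most proteins of blood plasma, and their genes serve as markers of liver RNA. Albumin carries fatty acids and hormones, fetuin-A binds calcium phosphate and inhibits the insulin receptor, and apolipoprotein C-I is a small component of lipoproteins that is also made by macrophages and fat tissue. Major urinary proteins are lipocalins that bind small hydrophobic molecules. In mice the liver secretes them and the kidney passes them into urine, where they carry pheromones, and growth hormone acting through STAT5 raises their expression in male liver.

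The 4 Mup genes lie on the minus strand of chromosome 4 (GRCm38, RefSeq genes): Mup2 at chr4:60135913-60139977, Mup10 at chr4:60578260-60582276, Mup11 at chr4:60658466-60662432 and Mup19 at chr4:61778324-61782355. They belong to a cluster of 21 listed Mup genes that spans 2194038 bases. Their coding sequences are nearly the same, which limits how far reads can be assigned to any of them. Over 540 coding bases, Mup2 and Mup19 differ by 3 substitutions (99.44% identity), Mup2 and Mup10 by 4 (99.26%) and Mup10 and Mup19 by 3 (99.44%). Mup11, at 543 coding bases, differs from Mup2 by 1 substitution and a gap of 3 bases. Of the 5 positions that vary among the 4 genes, 3 lie in the coding part of the first coding exon. That stretch is shown here from the start codon, read from the GENCODE transcripts of GRCm38, since it holds most of what tells these genes apart. Capitals mark the bases that differ between the 4 genes, including the 3 extra bases of Mup11.
Mup2 (chr4:60139691-60139786, minus strand): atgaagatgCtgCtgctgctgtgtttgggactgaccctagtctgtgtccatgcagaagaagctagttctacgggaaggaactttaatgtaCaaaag
Mup10 (chr4:60581993-60582088, minus strand): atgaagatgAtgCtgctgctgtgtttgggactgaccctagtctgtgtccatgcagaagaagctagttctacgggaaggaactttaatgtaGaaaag
Mup11 (chr4:60662202-60662300, minus strand): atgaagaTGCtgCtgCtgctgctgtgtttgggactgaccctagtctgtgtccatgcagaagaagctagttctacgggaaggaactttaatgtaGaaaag
Mup19 (chr4:61782063-61782158, minus strand): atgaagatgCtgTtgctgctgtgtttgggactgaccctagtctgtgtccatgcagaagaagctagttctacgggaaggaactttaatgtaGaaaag

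Between these marked positions the 4 sequences are identical for long runs, so a short read from the middle of this exon fits all of them. Over the whole annotated transcripts, Mup19 had no stretch of 50 or of 100 bases that is absent from every other gene (0 of 1015 and 0 of 965 stretches). Mup2 had none of 50 bases and 22 of 955 of 100 bases (2.30%). For Mup10 14.6% and for Mup11 21.8% of the 100-base stretches were in no other gene. Mup19 shared the most 100-base stretches with Mup9 (75.3%), and Mup2 with Mup14 (72.7%). Mup10 shared the most with Mup22 (85.0%), a gene that is not among the 21 Mup genes analysed here. Every 50-base and every 100-base stretch of Alb (chr5:90460870-90476602, plus strand), Ahsg (chr16:22892015-22899451, plus strand) and Apoc1 (chr7:19689480-19692659, minus strand) was found in no other gene. The values of Mup2, Mup10, Mup11 and Mup19 are therefore the authors' division of reads within a family, while those of Alb, Ahsg and Apoc1 rest on sequence of their own. No source used here gives the read length.

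**Figure D1:**
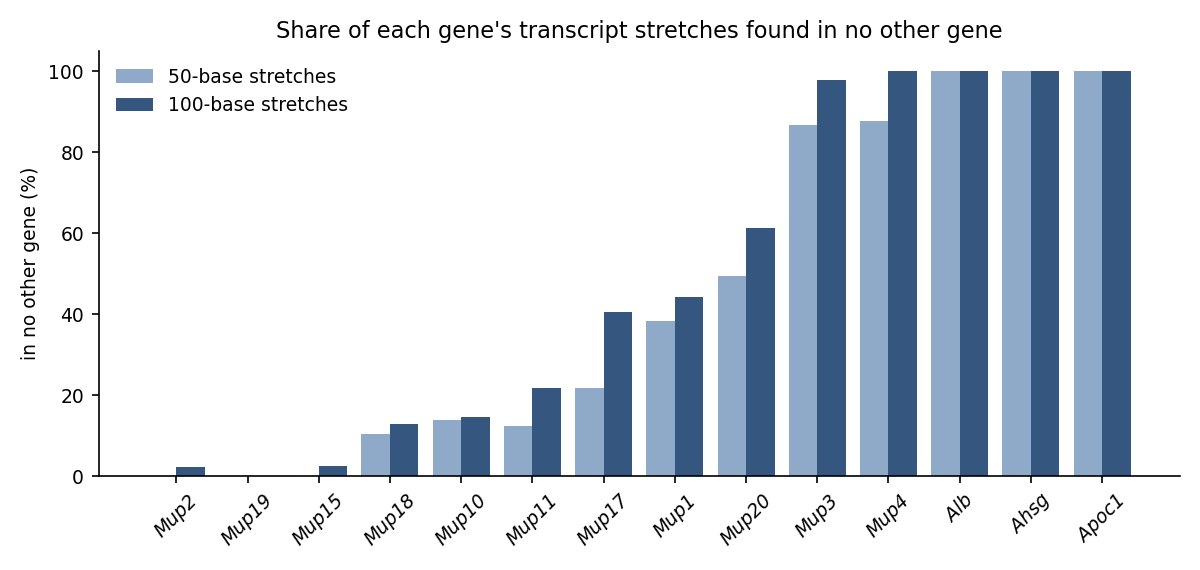
Share of the distinct 50-base and 100-base stretches of each gene's annotated transcripts that occur in no other gene's transcripts, in percent, for 11 Mup genes and for Alb, Ahsg and Apoc1. Mup19 stands at 0% for both lengths and Mup2 at 0% and 2.30%, while Alb, Ahsg and Apoc1 stand at 100%.

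Levels are the authors' FPKM, which count fragments relative to transcript length and library size, so that levels can be compared between genes. Differences are on the scale of log2(scaled FPKM + 1), Mettl14Δfat minus Mettl14f/f, after scaling between libraries by a trimmed mean of M values, and this scale understates the change of genes with low values. The 12955 genes that averaged 1 FPKM or more, among them all 7 described here, were tested by limma, and a gene is called higher or lower at an adjusted p under 0.05. Of the genes tested, 24.8% were higher, 24.8% lower and 49.6% either, with a median difference of 0.01. That split depends on the scaling, since 4672 genes were higher and 1963 lower on FPKM as deposited, against 3211 and 3209 here. Mup11 and Alb averaged under 1 FPKM in Mettl14f/f and reached the filter through Mettl14Δfat. Mettl14 itself was 4.48, 4.42 and 4.42 FPKM in Mettl14Δfat replicates 1 to 3, against 5.15, 4.67 and 5.47 FPKM in Mettl14f/f replicates 1 to 3 (difference −0.30, adjusted p = 0.0108 from limma), a value for whole tissue and the whole gene. It did not pass on FPKM as deposited (adjusted p = 0.0856) or without Mettl14Δfat replicates 1 and 2 (adjusted p = 0.134). These 2 libraries held transcripts of the male germ line. The FPKM of 14 such markers summed to 217, 341 and 2.40 in Mettl14Δfat replicates 1 to 3, against 2.08, 1.84 and 3.01 in Mettl14f/f. Differences are therefore also given without them where that moves a result, and this fit assumes that the lone Mettl14Δfat library varies like the others.

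In every Mettl14Δfat library the values of Mup19, Mup2 and Apoc1 lay above those of every Mettl14f/f library, those of Ahsg lay below, and those of Mup10, Mup11 and Alb overlapped. Among all genes tested, 30.3% had every Mettl14Δfat library above, and 30.8% every one below, so 61% did not overlap either way. The 7 genes were chosen on the same contrast, and nothing is read from their count of 4 of 7.

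Mup19 had the highest level of the 4 Mup genes. It was 26.3, 25.4 and 30.9 FPKM in Mettl14Δfat replicates 1 to 3, against 9.94, 4.43 and 5.16 FPKM in Mettl14f/f. The Mettl14Δfat libraries lay close to each other, and the highest Mettl14f/f library was below the lowest of them by a wide margin. The means were 27.5 ± 2.97 FPKM in Mettl14Δfat and 6.51 ± 2.99 FPKM in Mettl14f/f (SD, n = 3 each), 4.23-fold higher in Mettl14Δfat, with a log2 difference of 1.84. Leaving out any single library gave differences of 1.65 to 2.14, and the difference was 2.05 without the 2 libraries with germ line transcripts. The authors' mean scaled counts, which they deposited per group for genes selected on this contrast, were 449 for Mettl14Δfat and 126 for Mettl14f/f.

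Mup2 was 6.53, 4.79 and 6.03 FPKM in Mettl14Δfat replicates 1 to 3, against 2.59, 0.61 and 0 FPKM in Mettl14f/f. The groups did not overlap, and the Mettl14f/f values were spread from a gene listed at 0 to near the Mettl14Δfat range. Its log2 difference was 1.81, between 1.38 and 2.33 when any single library was left out. With a pseudocount of 0.1 it was 3.21. The authors' mean scaled counts were 77.2 for Mettl14Δfat and 22.3 for Mettl14f/f. In a correlation over the 6 libraries on the log2 scale, given as a description, Mup2 and Mup19 went together (r = 0.945), and they also share most of their sequence.

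Mup10 showed no such separation. It was 4.00, 0.91 and 7.92 FPKM in Mettl14Δfat replicates 1 to 3, against 6.25, 3.39 and 3.49 FPKM in Mettl14f/f. Its lowest and its highest value were both in Mettl14Δfat libraries, and the means, 4.28 ± 3.51 in Mettl14Δfat and 4.38 ± 1.62 in Mettl14f/f, were nearly equal. The log2 difference was −0.37, and its sign turned to 0.23 without Mettl14Δfat replicate 2 and to 0.67 without both libraries with germ line transcripts. With a pseudocount of 0.1 it was −0.58.

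Mup11 was 1.64, 0.51 and 4.52 FPKM in Mettl14Δfat replicates 1 to 3, against 0, 0.78 and 0.99 FPKM in Mettl14f/f. The lowest Mettl14Δfat library lay inside the Mettl14f/f range, and the highest stood well above it. The log2 difference of 0.81 ranged from 0.31 to 1.24 when single libraries were left out, was 1.77 without the 2 libraries with germ line transcripts and was 1.76 with a pseudocount of 0.1. Mup10 and Mup11 were both lowest, among Mettl14Δfat libraries, in replicate 2 and highest in replicate 3, where Mup19 took 70.9% and 52.9% of the summed Mup FPKM.

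**Figure D2:**
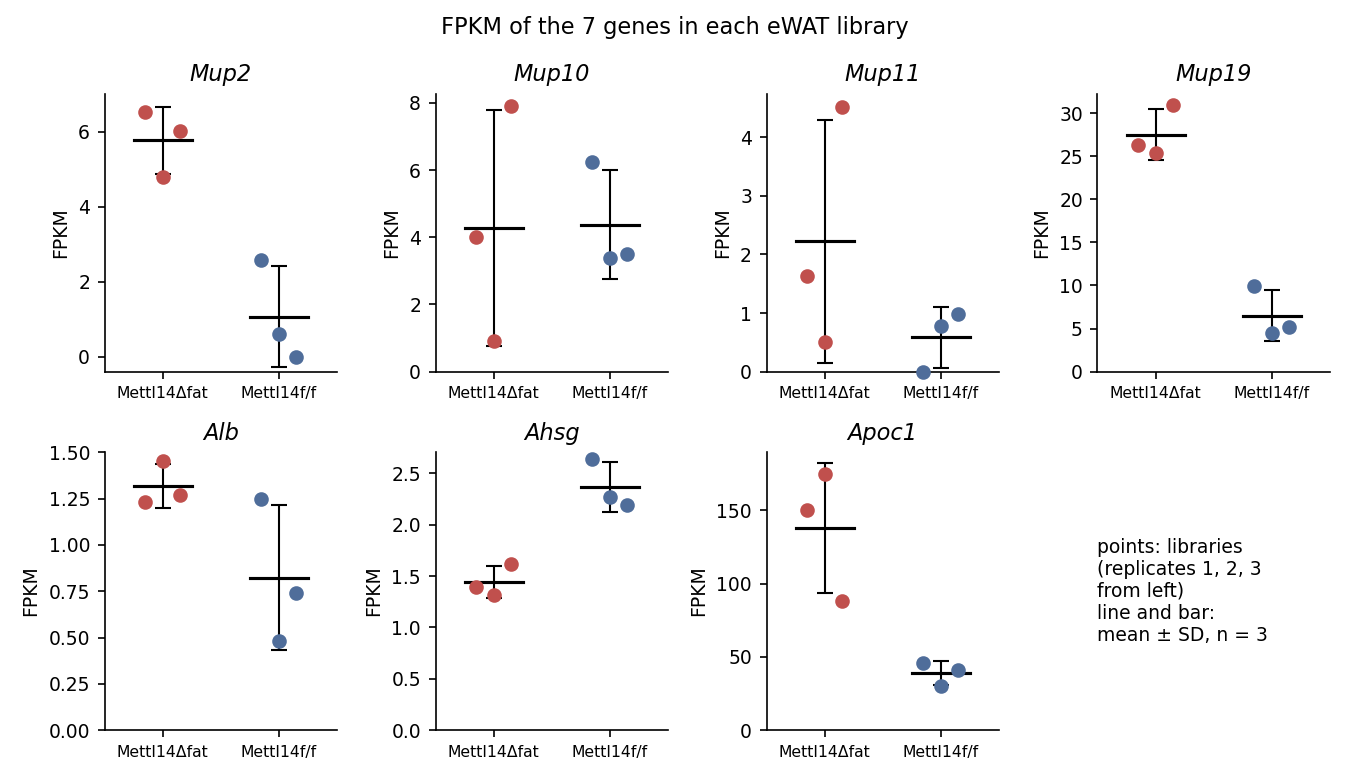
FPKM (vertical axes, from the deposited table) of the 7 genes in the 3 Mettl14Δfat (red) and the 3 Mettl14f/f (blue) eWAT libraries, with the mean ± SD of each group (n = 3). The groups are apart for Mup2, Mup19, Ahsg and Apoc1 and overlap for Mup10, Mup11 and Alb, and Ahsg alone among the 4 is lower in Mettl14Δfat.

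Since reads cannot be divided surely among the Mup genes, the family was also summed. All 21 Mup genes together came to 49.4, 35.8 and 58.4 FPKM in Mettl14Δfat replicates 1 to 3, against 24.6, 14.4 and 13.0 FPKM in Mettl14f/f. The sums did not overlap, at means of 47.8 ± 11.4 in Mettl14Δfat and 17.3 ± 6.31 in Mettl14f/f (SD, n = 3 each), 2.76-fold higher in Mettl14Δfat. Without Mup19 the sums were 23.1, 10.4 and 27.5 FPKM in Mettl14Δfat replicates 1 to 3, against 14.6, 9.99 and 7.82 FPKM in Mettl14f/f. These overlapped, at a ratio of means of 1.88. Mup19 took 53.2%, 70.9% and 52.9% of the sum in the Mettl14Δfat libraries, against 40.5%, 30.7% and 39.8% in the Mettl14f/f libraries. The sum of the family thus stood apart between the genotypes with Mup19 and overlapped without it. Taking Mup19 out relies on the authors' division of reads, so this does not place the difference in Mup19.

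The 17 other Mup genes had low values. Mup7, Mup8, Mup9, Mup12, Mup13, Mup14 and Mup16 were listed at 0 in every library, among them Mup9 and Mup14, which share the most sequence with Mup19 and Mup2. Mup5, Mup6 and Mup21 were above 0 in 1 library each, at 0.08 FPKM or less. Mup18 was the only other Mup gene with a mean of at least 1 FPKM, and it differs from Mup11 by 1 substitution in 543 coding bases. It was 5.00, 0.22 and 3.70 FPKM in Mettl14Δfat replicates 1 to 3, against 4.62, 4.51 and 1.86 FPKM in Mettl14f/f. It did not pass the test (difference −0.56, adjusted p = 0.467 from limma). Like Mup10 it was lowest of all libraries in Mettl14Δfat replicate 2, where Mup11 was lowest among the Mettl14Δfat libraries only.

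Mup3 and Mup4 have the most sequence of their own among the Mup genes above 0 in 3 or more libraries. For Mup3 97.8% and for Mup4 100% of the 100-base stretches are in no other gene. Mup3 was 1.54, 0.95 and 1.03 FPKM in Mettl14Δfat replicates 1 to 3, against 0.19, 0.24 and 0.42 FPKM in Mettl14f/f. Mup4 was 0.19, 0.19 and 0.08 FPKM in Mettl14Δfat and was listed at 0 in all Mettl14f/f libraries. Mup1 was 0.42, 0.32 and 1.35 FPKM in Mettl14Δfat and was also listed at 0 in all Mettl14f/f libraries. Mup17 was 0.82, 1.22 and 2.45 FPKM in Mettl14Δfat, against 0, 0 and 0.62 FPKM in Mettl14f/f. These 4 were the other Mup genes whose libraries did not overlap, all with Mettl14Δfat above. All had means under 1 FPKM over the 6 libraries, so they were not tested. Among all genes tested, 30.3% had every Mettl14Δfat library above and 30.8% every one below, and nothing is read from the count of 4. Few reads stand behind these values. The authors' mean scaled counts were 1.66 for Mettl14Δfat and 0.529 for Mettl14f/f for Mup4, and 10.5 and 1.00 for Mup1. They were 19.0 and 5.82 for Mup3, and 21.9 and 6.18 for Mup17. Mup15 (0 to 1.57 FPKM in Mettl14Δfat and 0 to 0.17 in Mettl14f/f) and Mup20 (0.41 to 1.31 in Mettl14Δfat and 0.44 to 0.74 in Mettl14f/f) overlapped.

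**Figure D3:**
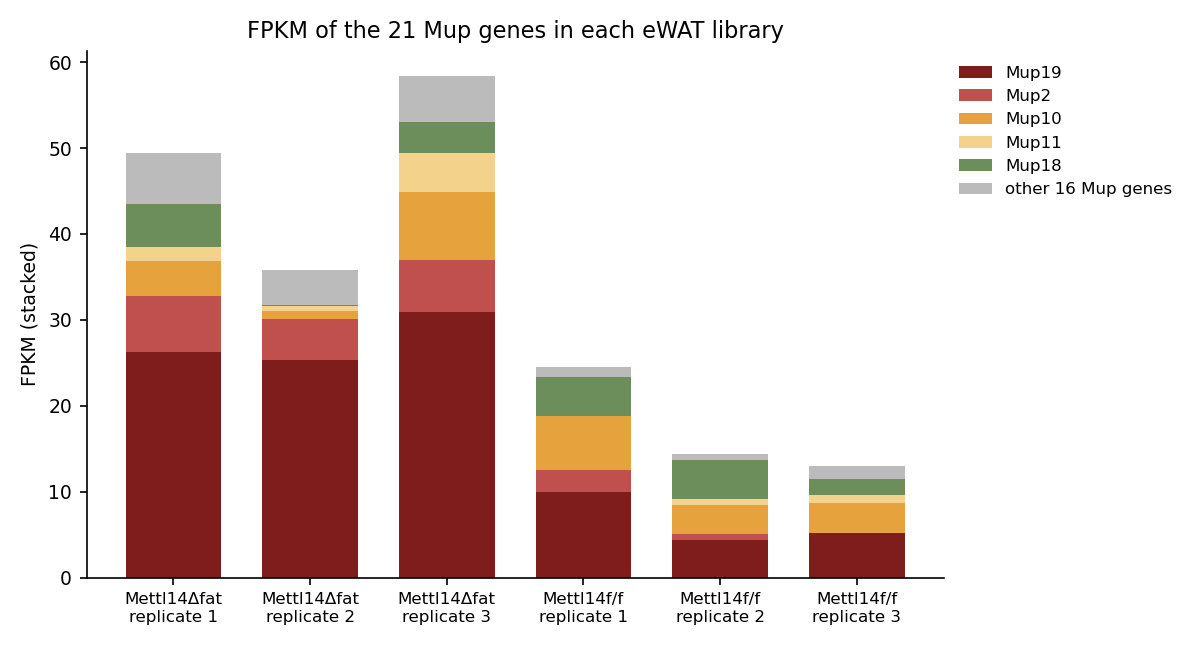
Stacked FPKM of Mup19, Mup2, Mup10, Mup11, Mup18 and the other 16 Mup genes in each library, the 3 Mettl14Δfat libraries at the left. The stacks reach 35.8 to 58.4 FPKM in Mettl14Δfat and 13.0 to 24.6 FPKM in Mettl14f/f, and Mup19 is the largest single gene in all but Mettl14f/f replicate 2, where Mup18 was 4.51 and Mup19 4.43 FPKM.

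Alb, the most abundant transcript of liver, was near the lower limit of what was tested in eWAT. It was 1.23, 1.45 and 1.27 FPKM in Mettl14Δfat replicates 1 to 3, against 1.25, 0.48 and 0.74 FPKM in Mettl14f/f. The Mettl14Δfat libraries were alike, and Mettl14f/f replicate 1 lay among them. The means were 1.32 ± 0.117 in Mettl14Δfat and 0.823 ± 0.392 FPKM in Mettl14f/f (SD, n = 3 each), and the log2 difference was 0.29, with 0.15 to 0.45 when single libraries were left out and 0.55 with a pseudocount of 0.1.

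Ahsg was the only gene of the 7 whose Mettl14Δfat libraries lay below. It was 1.39, 1.32 and 1.62 FPKM in Mettl14Δfat replicates 1 to 3, against 2.64, 2.27 and 2.19 FPKM in Mettl14f/f. The groups did not overlap, and the spread within each was small. The means were 1.44 ± 0.157 in Mettl14Δfat and 2.37 ± 0.240 FPKM in Mettl14f/f (SD, n = 3 each). The log2 difference was −0.57, −0.46 on FPKM as deposited and −0.43 without the 2 libraries with germ line transcripts. The authors' mean scaled counts, 38.7 for Mettl14Δfat and 78.8 for Mettl14f/f, show that few reads stand behind these values. Alb and Ahsg, which hepatocytes make together, thus took opposite signs in eWAT, although Alb overlapped.

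Apoc1 was by far the highest of the 7. It was 150, 175 and 88.5 FPKM in Mettl14Δfat replicates 1 to 3, against 46.1, 29.98 and 41.4 FPKM in Mettl14f/f. The groups did not overlap, and the lowest Mettl14Δfat library was replicate 3, the one with germ line markers at the level of Mettl14f/f. The means were 138 ± 44.4 in Mettl14Δfat and 39.2 ± 8.29 FPKM in Mettl14f/f (SD, n = 3 each), 3.52-fold higher in Mettl14Δfat. The log2 difference was 1.60, between 1.41 and 1.86 when single libraries were left out and 1.06 without both libraries with germ line transcripts. The part of the germ line RNA in this value was not tested. The authors' mean scaled counts were 1057 for Mettl14Δfat and 354 for Mettl14f/f.

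By mean FPKM over the 6 libraries the order was Apoc1 (88.5), Mup19 (17.0), Mup10 (4.33), Mup2 (3.43), Ahsg (1.91), Mup11 (1.41) and Alb (1.07). Apoc1 and Mup19 stood clear of the rest in all 6 libraries, apart from Mup10, which exceeded Mup19 in none and lay within 2 FPKM of it in Mettl14f/f replicates 2 and 3. Mup10 and Mup2 changed places between libraries, as did Mup11, Ahsg and Alb, so neighbours in this lower part of the order do not differ beyond their spread. Apoc1 was above 95.9% of the 21361 genes, Mup19 above 79.3%, and Alb above 39.9%.

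The genes whose pattern over the 6 libraries was most like that of each were chosen by the highest Pearson correlation among the genes tested, on the log2 scale, as a description. For the mean of the 4 Mup genes they were Fez1 (r = 0.997), Chp2 (0.996), Ifi47 (0.996) and Plac8 (0.995). Ifi47, an interferon-induced GTPase, was 22.1, 13.0 and 32.8 FPKM in Mettl14Δfat, against 11.7, 6.63 and 7.21 FPKM in Mettl14f/f, and its libraries stood in the same order as those of the sum of the 4 Mup genes. For Alb they were Irf7, a factor of the interferon response (r = 0.990), Cyp2d22 (0.989), 4931406P16Rik (0.986) and Zfp810 (0.984). For Ahsg they were Vma21 (r = 0.999), Ube2d2a (0.998), Mon2 (0.998) and Rgs18 (0.997). For Apoc1 they were 4930453N24Rik, Flt4, the VEGF receptor of lymphatic endothelium, Fermt2 and Fzd4 (r = 0.999 for each). All libraries share the genotype contrast, and with 6 points many genes reach such values.

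Among the neighbours of Apoc1 and the genes that handle lipoproteins, 7 of 17 tested were higher, 5 lower and 5 did not pass, with a median difference of 0.12. The shares over all genes tested were 24.8% higher and 24.8% lower. Apoc4 and Apoc2, which lie beside Apoc1 in the cluster headed by Apoe, were both higher. Apoc4 was 5.11, 4.97 and 4.96 FPKM in Mettl14Δfat, against 1.21, 1.86 and 0.69 FPKM in Mettl14f/f (difference 1.34, adjusted p = 0.00209 from limma). Apoc2, the activator of lipoprotein lipase, was 9.33, 8.12 and 6.88 FPKM in Mettl14Δfat, against 5.43, 4.5 and 3.6 FPKM in Mettl14f/f (difference 0.59, adjusted p = 0.0134 from limma, and 0.155 without the 2 libraries with germ line transcripts). Apoe, the most abundant of the cluster, was 2521 to 3377 FPKM in Mettl14Δfat and 2092 to 2327 FPKM in Mettl14f/f and did not pass (difference 0.24, adjusted p = 0.170 from limma, and 0.0311 on FPKM as deposited). So the Apoc genes around Apoc1 were called and the gene with the highest level in the cluster was not.

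Of the proteins that act on lipoproteins at the vessel wall, Gpihbp1, which anchors lipoprotein lipase on capillaries, was higher at 172, 183 and 153 FPKM in Mettl14Δfat, against 70.3, 52.0 and 73.4 FPKM in Mettl14f/f (difference 1.21, adjusted p = 8.57e-04 from limma). The receptor gene Vldlr was higher as well (difference 1.26, adjusted p = 0.00127), and so was Mylip, a ligase that degrades lipoprotein receptors (difference 0.89, adjusted p = 0.00206). Lpl, the lipase itself, had a difference of 0.00 (adjusted p = 0.996 from limma). Lrp1, a receptor for remnant lipoproteins, was lower (difference −1.15, adjusted p = 5.27e-04 from limma), as was Pltp, which transfers phospholipids between lipoproteins (difference −0.67, adjusted p = 0.00987, and 0.0905 without the 2 libraries with germ line transcripts).

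Other genes of proteins that the liver secretes were mostly low in eWAT. Of 89 listed, 65 had a mean under 1 FPKM, and Mug2 and Apcs were at 0 in every library. Of the 24 tested, 15 were higher, 4 lower and 5 did not pass, with a median difference of 0.78. Of all genes tested 24.8% were higher. The median among all genes was 0.01. Of these 24, Orm3 and Apoc3 averaged under 1 FPKM in Mettl14f/f and reached the filter through Mettl14Δfat. With other settings the count of higher genes was 11 to 19 and that of lower genes 3 to 6, with 11 both when at least 1 FPKM was required in every library and without the 2 libraries with germ line transcripts.

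Hpx, hemopexin, which scavenges heme, had the largest difference of the list. It was 26.9, 24 and 33.4 FPKM in Mettl14Δfat, against 0.95, 1.18 and 1.57 FPKM in Mettl14f/f (difference 3.58, standard error 0.158, adjusted p = 1.04e-04 from limma). Orm2 and Orm3, genes of orosomucoids, which are acute phase lipocalins, were higher as well. Orm2 was 33.9, 25.3 and 44.6 FPKM in Mettl14Δfat, against 5.05, 4.08 and 4.32 FPKM in Mettl14f/f (difference 2.52, adjusted p = 3.74e-04 from limma), and Orm3 was 8.70, 6.93 and 6.38 FPKM in Mettl14Δfat, against 1.11, 0.34 and 1.10 FPKM in Mettl14f/f. Orm1 was already at 57.5 to 92.7 FPKM in Mettl14f/f and was 177 to 211 FPKM in Mettl14Δfat (difference 1.19, adjusted p = 0.00195). The 3 Orm genes are close copies, so reads may be divided between them with error. Angptl8, an inhibitor of lipoprotein lipase that fat and liver secrete, was 14.3, 17.8 and 9.18 FPKM in Mettl14Δfat, against 2.03, 2.53 and 1.94 FPKM in Mettl14f/f (difference 2.05, adjusted p = 6.96e-04 from limma). Agt, angiotensinogen, had a difference of 2.02 (adjusted p = 0.00371 from limma), and Rbp4, the retinol carrier, one of 1.47 (adjusted p = 0.0152, but 0.0534 without Mettl14Δfat replicate 1 and 0.185 without the 2 libraries with germ line transcripts).

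A few genes of the same list were lower. F7, coagulation factor VII, was 11.1, 11.3 and 11.01 FPKM in Mettl14Δfat, against 33.4, 43.4 and 44.5 FPKM in Mettl14f/f (difference −1.91, adjusted p = 1.79e-04 from limma). Tfpi2, a protease inhibitor, was lower too (difference −0.94, adjusted p = 0.00175). Hp, haptoglobin, had the highest level of the list at 841 to 986 FPKM in Mettl14Δfat and 1089 to 1456 FPKM in Mettl14f/f, and was lower (difference −0.61, adjusted p = 0.00735 from limma, and 0.0548 without the 2 libraries with germ line transcripts). Haptoglobin binds hemoglobin as hemopexin binds heme, and these 2 genes had opposite signs. Trf, transferrin, was 495 to 747 FPKM in Mettl14Δfat and 372 to 444 FPKM in Mettl14f/f and did not pass (adjusted p = 0.0524 from limma), but did in 4 of the alternatives, among them without Mettl14Δfat replicate 3 (adjusted p = 0.00398).

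**Figure D4:**
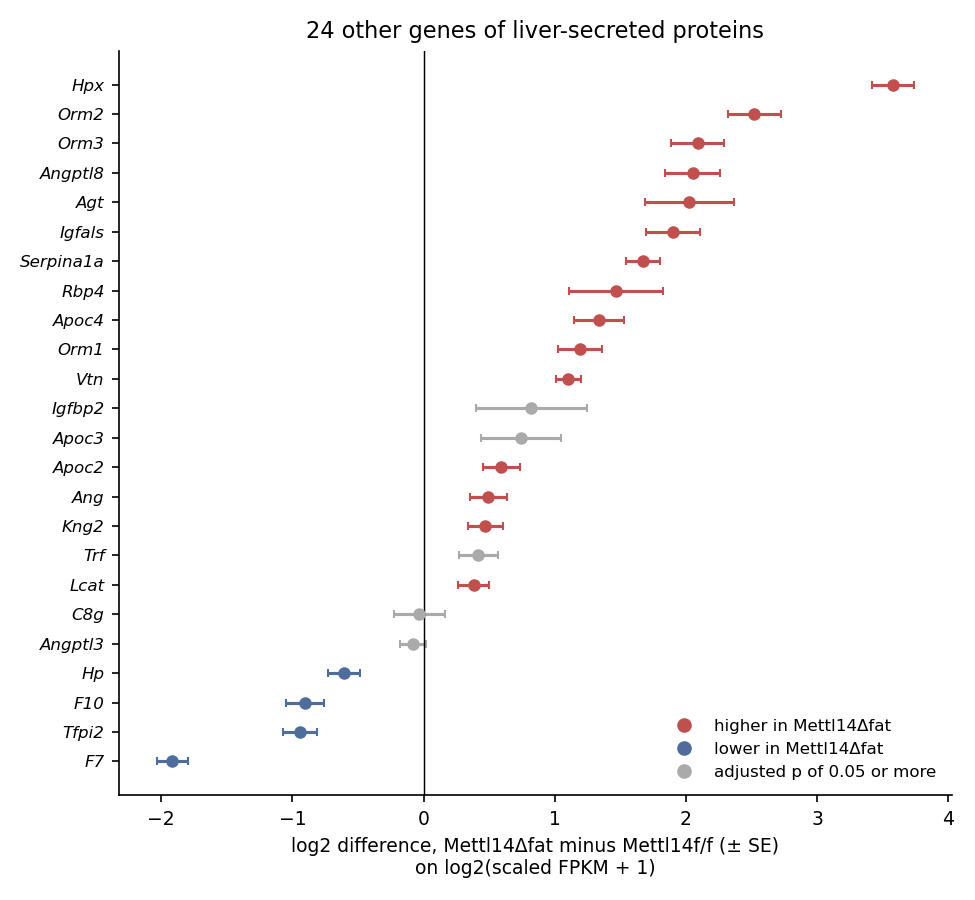
Log2 difference, Mettl14Δfat minus Mettl14f/f, with its standard error, of the 24 other genes of liver-secreted proteins that were tested, on the scale of log2(scaled FPKM + 1). The differences run from −1.91 for F7 to 3.58 for Hpx, with 15 called higher, 4 called lower and 5 not called.

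Hepatocyte genes whose products stay in the cell were measured beside the secreted ones. Of 55 such markers, 45 had a mean under 1 FPKM, with no single value above 2.10, and Otc, an enzyme of the urea cycle, was at 0 in every library. Cps1, another enzyme of that cycle, and Cyp3a11, a drug-metabolizing P450 of liver, were at 0.05 FPKM or less in every library (these 2 were chosen after their values had been seen). The 45 low markers summed to 10.7, 13.4 and 5.29 FPKM in Mettl14Δfat, against 2.85, 3.30 and 3.09 FPKM in Mettl14f/f. This sum was highest in Mettl14Δfat replicates 1 and 2, which held germ line transcripts, and replicate 3 was also above every Mettl14f/f library. The part of hepatocyte RNA in the values of the 7 genes was not tested. Of the 10 markers tested, 4 were higher, 1 lower and 5 did not pass, but 4 of the 10, among them 2 of the higher ones, averaged under 1 FPKM in Mettl14f/f and reached the filter through Mettl14Δfat. With at least 1 FPKM required in every library 2 were higher and 1 lower. In the main fit 24.8% of all genes tested were higher and 24.8% lower.

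Cyp2e1, a P450 that fat expresses too, was 330, 490 and 87.0 FPKM in Mettl14Δfat, against 102, 13.0 and 24.2 FPKM in Mettl14f/f. Its groups overlapped (difference 2.71, adjusted p = 0.0398 from limma), and it did not pass in 6 of the alternatives, with adjusted p up to 0.401. Cyp2f2, a further P450, was 2.38, 2.75 and 2.35 FPKM in Mettl14Δfat, against 0.30, 0.14 and 0.22 FPKM in Mettl14f/f. Asgr2, a subunit of the asialoglycoprotein receptor, was 2.54, 2.12 and 4.14 FPKM in Mettl14Δfat, against 0.95, 0.25 and 0.65 FPKM in Mettl14f/f. These are the 2 higher markers that reached the filter through Mettl14Δfat. Aldh1l1, of folate metabolism, was higher by 0.95 (adjusted p = 0.00286 from limma). Pck1, which makes phosphoenolpyruvate and serves glycerol synthesis in fat, was lower (difference −1.07, adjusted p = 0.0154 from limma, and 0.0507 with the replicate number as a block). Ass1, of the urea cycle, did not pass (difference 0.05, adjusted p = 0.899) but was higher without Mettl14Δfat replicate 3 (difference 0.42, adjusted p = 0.0280). Its sign turned without the 2 libraries with germ line transcripts (difference −0.68, adjusted p = 0.0163).

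Transcription factors that drive liver genes were mostly low. Of 17 listed, 12 had a mean under 1 FPKM, and Foxa1, Onecut1 and Nr1i3 were at 0 in every library. Hnf4a, a master factor of hepatocytes, was 2.75, 4.95 and 0 FPKM in Mettl14Δfat, against 0.01, 0 and 0.01 FPKM in Mettl14f/f. It was above 0.01 FPKM in the 2 libraries with germ line transcripts alone, and reached the filter through them. Cebpa, a factor of both liver and fat, was 267, 307 and 262 FPKM in Mettl14Δfat, against 174, 174 and 196 FPKM in Mettl14f/f, and was the 1 gene of 5 tested that was higher (difference 0.46, adjusted p = 0.00531 from limma). Cebpb (difference 0.22, adjusted p = 0.450) and Creb3l3 (difference −0.26, adjusted p = 0.0822) did not pass, although Creb3l3 did under both other filters on low values (adjusted p = 0.0243 with none and 0.0270 with at least 1 FPKM in every library).

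Growth hormone acts on Mup genes in liver, and genes of its signaling went both ways in eWAT. Of 10 tested, 3 were higher, 2 lower and 5 did not pass, with a median difference of 0.19. Among all genes tested 24.8% were higher and 24.8% lower. Bcl6, a STAT5-regulated repressor, was 35.2, 40.01 and 33.2 FPKM in Mettl14Δfat, against 21.04, 19.9 and 20.05 FPKM in Mettl14f/f (difference 0.64, adjusted p = 7.92e-04 from limma). Cish, an inhibitor of cytokine receptors that STAT5 induces, was 2.81, 3.5 and 2.37 FPKM in Mettl14Δfat, against 0.98, 1.10 and 1.44 FPKM in Mettl14f/f (difference 0.73, adjusted p = 0.00564, and 0.0659 without the 2 libraries with germ line transcripts). Stat5a was higher by 0.24 (adjusted p = 0.0221 from limma), a call lost in 6 of the alternatives. Igf1, the hormone that growth hormone induces, was 31.1 to 31.3 FPKM in Mettl14Δfat and 32.5 to 35.8 FPKM in Mettl14f/f, and was lower (difference −0.30, adjusted p = 0.00553 from limma, but 0.0653 on FPKM as deposited and 0.0876 without the 2 libraries with germ line transcripts). Igfbp3, which carries it, was lower as well (difference −0.74, adjusted p = 0.0102 from limma). The receptor gene Ghr did not pass (difference 0.28, adjusted p = 0.204 from limma), nor did Stat5b (difference 0.12, adjusted p = 0.147, and 0.0111 on FPKM as deposited). Socs2, of the same list, was 6.74, 7.09 and 6.71 FPKM in Mettl14Δfat, against 5.47, 5.73 and 5.30 FPKM in Mettl14f/f. Its groups did not overlap, but it did not pass (difference 0.13, adjusted p = 0.0888 from limma). Of the genes described here as induced by growth hormone or STAT5, Cish was called higher and Igf1 lower.

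In the promoters, from 250 bases before to 50 after the start used for each, 4 motifs were searched on both strands for the 6 members with an entry (all but Apoc1). For Alb and Ahsg that start was the RefSeq start. For the Mup genes it lay inside the RefSeq gene, with windows at chr4:60139807-60140106 (Mup2), chr4:60582106-60582405 (Mup10), chr4:60662346-60662645 (Mup11) and chr4:61782175-61782474 (Mup19). These windows reach less than 250 bases upstream of the RefSeq starts of the Mup genes. The STAT motif TTCNNNGAA was in none of the 6, and in 8.30% of all 32851 promoters. The TATA motif TATAAA was in none of the 6 (13.6% of all promoters). GTTAAT, a part of the HNF1 site, was in that of Alb alone (7.10%), and the C/EBP motif TTGCNNAA in those of Alb and Ahsg (10.8%). The 2 matches in Alb do not overlap each other, and a match or its absence is a description of these letters in these windows.

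Partners of albumin and fetuin-A were called in both directions. Of 10 tested, 4 were higher, 2 lower and 4 did not pass, where 24.8% of all genes tested were higher and 24.8% lower. Fcgrt, a chain of the receptor that rescues albumin from degradation, was 225, 219 and 247 FPKM in Mettl14Δfat, against 158, 142 and 141 FPKM in Mettl14f/f (difference 0.48, adjusted p = 0.00377 from limma). Cav1, the caveolin through which endothelium takes up albumin, was higher by 0.74 (adjusted p = 0.00970) and Sparc, a matrix protein that binds albumin, by 0.41 (adjusted p = 0.00701), and without the 2 libraries with germ line transcripts their adjusted p were 0.126 and 0.112. That of Sparc was 0.203 with no filter on low values. Dab2, an adaptor for endocytosis, was higher by 0.36 (adjusted p = 0.00703 from limma). Tgfb1, whose product fetuin-A binds, was lower (difference −0.94, adjusted p = 6.10e-04 from limma), as was Enpp1, an inhibitor of calcification (difference −0.44, adjusted p = 0.0277), a call lost in 7 of the alternatives. Mgp, another inhibitor of calcification, did not pass (adjusted p = 0.443).

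Of the acute phase genes, 7 of 17 tested were higher, 2 lower and 8 did not pass, beside 24.8% higher and 24.8% lower among all genes. Lcn2, a lipocalin as the Mup proteins are, was 195, 213 and 143 FPKM in Mettl14Δfat, against 28.2, 14.8 and 12.9 FPKM in Mettl14f/f (difference 3.14, adjusted p = 4.74e-04 from limma). Serpina3c, a protease inhibitor, was higher by 1.58 (adjusted p = 0.00217), and Socs3, an inhibitor of cytokine signaling, by 0.92 (adjusted p = 0.00533). Saa3, the serum amyloid A that fat and macrophages make, was 24.6, 20.2 and 26.0 FPKM in Mettl14Δfat, against 42.2, 28.6 and 51.9 FPKM in Mettl14f/f, and was lower (difference −0.89, adjusted p = 0.0142 from limma, and 0.149 without the 2 libraries with germ line transcripts).

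Markers of other cells in the tissue moved with the genotypes too, beside 24.8% higher and 24.8% lower among all genes tested. Macrophages also make Apoc1, and 10 of 15 macrophage markers tested were lower, with sums of 3601, 2797 and 4862 FPKM in Mettl14Δfat, against 9191, 10781 and 9711 FPKM in Mettl14f/f. Among 20 genes that mark white adipocytes, 6 passed as higher and 4 as lower, with Slc2a4, the insulin-responsive glucose transporter, higher (difference 1.33, adjusted p = 0.00251 from limma) and Car3 lower (difference −1.26, adjusted p = 0.0321), a call lost in 7 of the alternatives. Epithelial markers followed the germ line transcripts, at 98.2, 165 and 4.72 FPKM in sum in Mettl14Δfat, against 6.82, 7.12 and 8.53 FPKM in Mettl14f/f. Mup19 was highest in Mettl14Δfat replicate 3, where germ line and epithelial markers were at the level of Mettl14f/f, while Apoc1 was lowest among Mettl14Δfat libraries there. The sum of 12 markers of Leydig and Sertoli cells, the somatic cells of the testis, was above Mettl14f/f in that library too. The sums were 117, 175 and 35.1 FPKM in Mettl14Δfat, against 18.0, 19.7 and 19.8 FPKM in Mettl14f/f. Not every marker was above there. In Mettl14Δfat replicate 3 Hsd3b1 was 0.03 FPKM and Star 2.12 FPKM. Their Mettl14f/f ranges were 0 to 0.03 and 1.99 to 2.68 FPKM, and Rhox5 was at 0 in every library. Inhbb was above at 14.4 FPKM, against 8.89 to 10.3 FPKM in Mettl14f/f, as was Cyp11a1 at 2.34 FPKM, against 0.73 to 1.01 FPKM. Insl3, which encodes a peptide hormone that Leydig cells secrete, had 85.8, 135 and 15.9 FPKM in Mettl14Δfat, against 5.56, 7.52 and 5.64 FPKM in Mettl14f/f (difference 2.87, adjusted p = 0.0157 from limma, a call lost in 3 of the alternatives, with adjusted p up to 0.0554). The part of testis, macrophage, adipocyte or epithelial RNA in the values of the 7 genes was not tested.

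**Figure D5:**
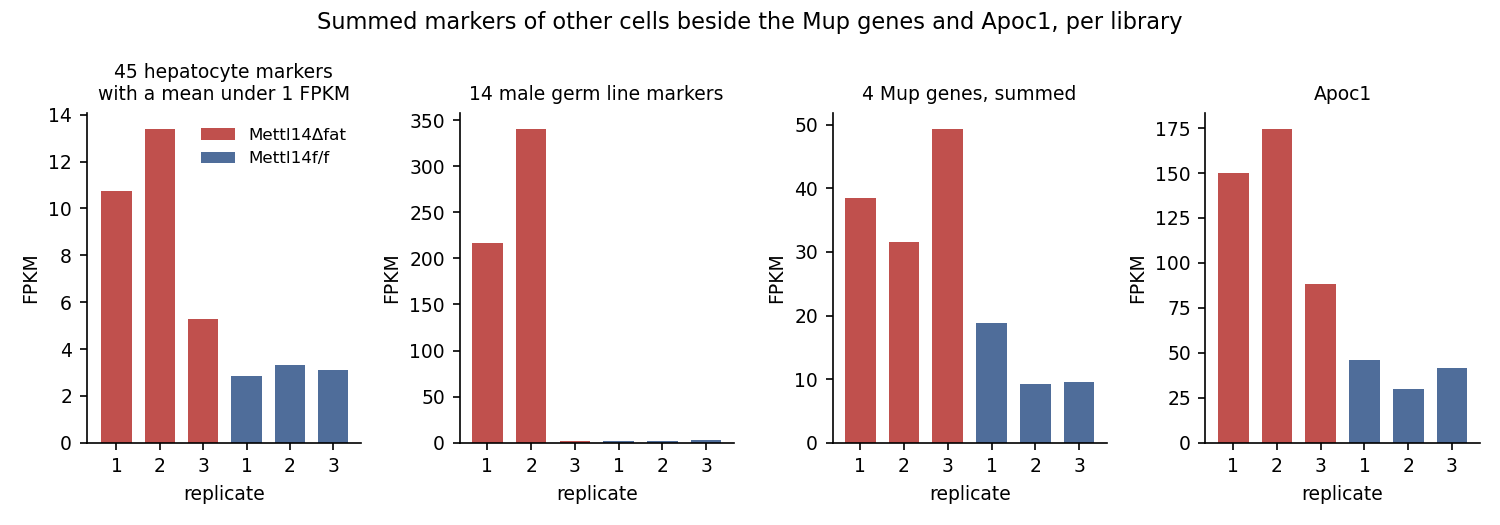
FPKM in each library of 45 hepatocyte markers with a mean under 1 FPKM (sum), 14 male germ line markers (sum), the 4 Mup genes (sum) and Apoc1, with Mettl14Δfat in red and Mettl14f/f in blue. The germ line sum is 217 and 341 FPKM in Mettl14Δfat replicates 1 and 2 and 3.01 or less in the other 4 libraries, whereas the summed 4 Mup genes are highest in Mettl14Δfat replicate 3 at 49.4 FPKM.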

How the data were processed

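RNA of eWAT from 3 Mettl14Δfat and 3 Mettl14f/f mice was analysed from the table that the authors deposited. It holds FPKM per library, with 2 decimals, and for each group a mean signal of scaled counts made by the authors. Per the submitters' processing notes the build was mm10 and the tools included RSEM, HISAT2, DESeq2 and Bowtie2, while the study's methods name STAR, HTSeq and DESeq2. No source used here gives which of them made the FPKM, their versions, the read length or the strandedness. The deposited columns of the authors' own comparison (fold changes and p-values) were not used.

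Date-like entries were restored to 27 gene symbols, 1 unnamed entry was left out, and 21300 of 21361 genes were matched to RefSeq. The 12955 genes that averaged 1 FPKM or more were tested. FPKM were divided by unweighted factors of a trimmed mean of M values (trims of 30% and 5%), and log2(scaled FPKM + 1) was compared by limma 3.58.1 in R 4.3.3 with a mean-variance trend, two-sided, with Benjamini-Hochberg adjustment over all genes tested. The step was tested on simulated data. Depth per library is unknown. The authors' mean scaled counts and FPKM of 5610 genes of the second table together imply a median of 19300000 fragments for Mettl14Δfat and 22200000 for Mettl14f/f. The 3 mice per group limit the precision.

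The 7 genes and all gene lists were chosen with earlier results of these data known, so the 7 were given no p-value. Named besides them were every other Mup gene, Mettl14, and from each list up to 5 called genes with the largest difference in the direction most calls took, up to 2 in the other direction, up to 4 with the highest mean and those at 0 in all libraries, and the 4 genes most correlated with each pattern. A few more were chosen after their values had been seen. The 14 alternatives changed the pseudocount to 0.1, the filter (none, or at least 1 FPKM in every library), the scaling (median of ratios, FPKM as deposited, factors over all genes above 0), added the replicate number as a block, or left out each library or both libraries with germ line transcripts. Sequences came from GENCODE transcripts of GRCm38 and positions from RefSeq GRCm38.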

Additional observations from a re-analysis of the deposited data

How the results depend on the processing

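The sign of the differences of Mup2, Mup11, Mup19, Alb, Ahsg and Apoc1 held in all 14 alternatives. That of Mup10, −0.37, did not, at −0.88 to 0.23 when single libraries were left out and 0.67 without both libraries with germ line transcripts. In that last fit, which has 1 Mettl14Δfat library, 1656 genes were higher and 1519 lower, against 3211 and 3209 with all libraries, Ass1 turned to −0.68 and Krt19 to −0.54, and 2 hepatocyte markers were higher and 2 lower, against 4 and 1. Fewer samples were in it. On FPKM as deposited, where the median difference of all genes was 0.15, 4672 genes were higher and 1963 lower. Leaving out single libraries gave 2256 to 3813 higher and 2202 to 3565 lower genes, and 3 to 7 higher hepatocyte markers, the 7 without Mettl14Δfat replicate 3. With at least 1 FPKM in every library 2 hepatocyte markers were higher, since fewer were tested, and with no filter 2 were lower and 2 other Mup genes were higher, against 0 in limma with the filter, where Mup18 alone was tested. The cause of the other changes was not tested.

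Whether the replicate numbers pair the mice is not known. Same-numbered libraries had correlations of their deviations from the group means of 0.037, −0.091 and −0.131. With 3 libraries behind each mean, these values cannot decide it. With the replicate number as a block 2653 genes were higher and 2559 lower, and 0 hepatocyte markers were lower, against 1.

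Low FPKM rest on few reads, reads shared among Mup genes cannot be assigned surely, and nothing here separates cell shares from RNA per cell.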
